A study of Homo sapiens with 3 samples.

Results

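The 45 genes described here are interferon-stimulated genes, chosen by symbol from the 58735 genes of the deposited matrices, and each symbol matched 1 gene. They were measured by single-cell RNA sequencing in FaDu, a cell line from a squamous carcinoma of a human hypopharynx, and in a TPF-resistant subline of it (TPF stands for paclitaxel, cisplatin and 5-fluorouracil). There were 3 libraries, 1 per group: resistant cells given TPF and cinobufotalin, resistant cells given TPF, and parental FaDu cells given cinobufotalin. Cinobufotalin is a bufadienolide, a steroid of toad venom. The sources used here give no dose or time. FaDu cells with no drug or with TPF alone and resistant cells off TPF were not analysed here. The resistant cells stand for a single subline, and no group had a second library. An effect of a library, of its line and of its drug therefore cannot be told apart where these differ together, nothing was tested between groups, and every interval below is at 95% by the Clopper-Pearson method, for counting error alone.

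Interferons are cytokines that cells release after they sense foreign or misplaced nucleic acid. Type I and type III interferons bind different receptors on the same or neighbouring cells, and both lead through the kinases JAK1 and TYK2 to transcription factors, STAT2 and IRF9 among them, that act at interferon-stimulated response elements in promoters. The genes it switches on encode inhibitors of virus entry, translation and replication, modifiers of other proteins, and parts of the pathway itself, and epithelial cancer cell lines often carry a standing level of many of them.

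After removal of barcodes with few UMIs or genes or many mitochondrial UMIs, 7525, 4862 and 6123 cells with 134802289, 135176387 and 165847771 UMIs remained in the resistant TPF cinobufotalin, resistant TPF and FaDu cinobufotalin libraries, with a median of 17867, 27920.5 and 24440 UMIs per cell. All 11 squamous epithelial markers checked were measured, and none of 10 immune, 5 fibroblast and 4 endothelial markers reached a mean of 5 CPM (UMIs per 1000000, after the kept cells of a library were summed). Of the erythroid markers HBA1 reached it, at 9.53, 12.1 and 5.71 CPM, while HBB had at most 13 UMIs in a library. The part of HBA1 RNA in the results was not tested. PTPRC, the pan-leukocyte marker, had a UMI in 0 of 6954, 0 of 4657 and 0 of 5979 cells thinned to 5000 UMIs. MALAT1, a nuclear noncoding RNA, made up a median of 0.731%, 0.795% and 0.0892% of a cell's UMIs, and the libraries shared at most 19 cell barcodes.

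All 45 genes reached a 3-library mean of 5 CPM, as did 10317 genes in all. In sums over cells, fewer expressing cells and less RNA per cell cannot be told apart. The summed level of the 45 genes was 23560 CPM in the resistant TPF cinobufotalin library, 22955 CPM in the resistant TPF library and 28690 CPM in the FaDu cinobufotalin library. IFI27, which encodes a small hydrophobic protein of mitochondria and the nuclear envelope, supplied 14814, 13348 and 16787 CPM of these sums in the same libraries, so sums over all 45 genes mostly describe IFI27.

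**Figure D1:**
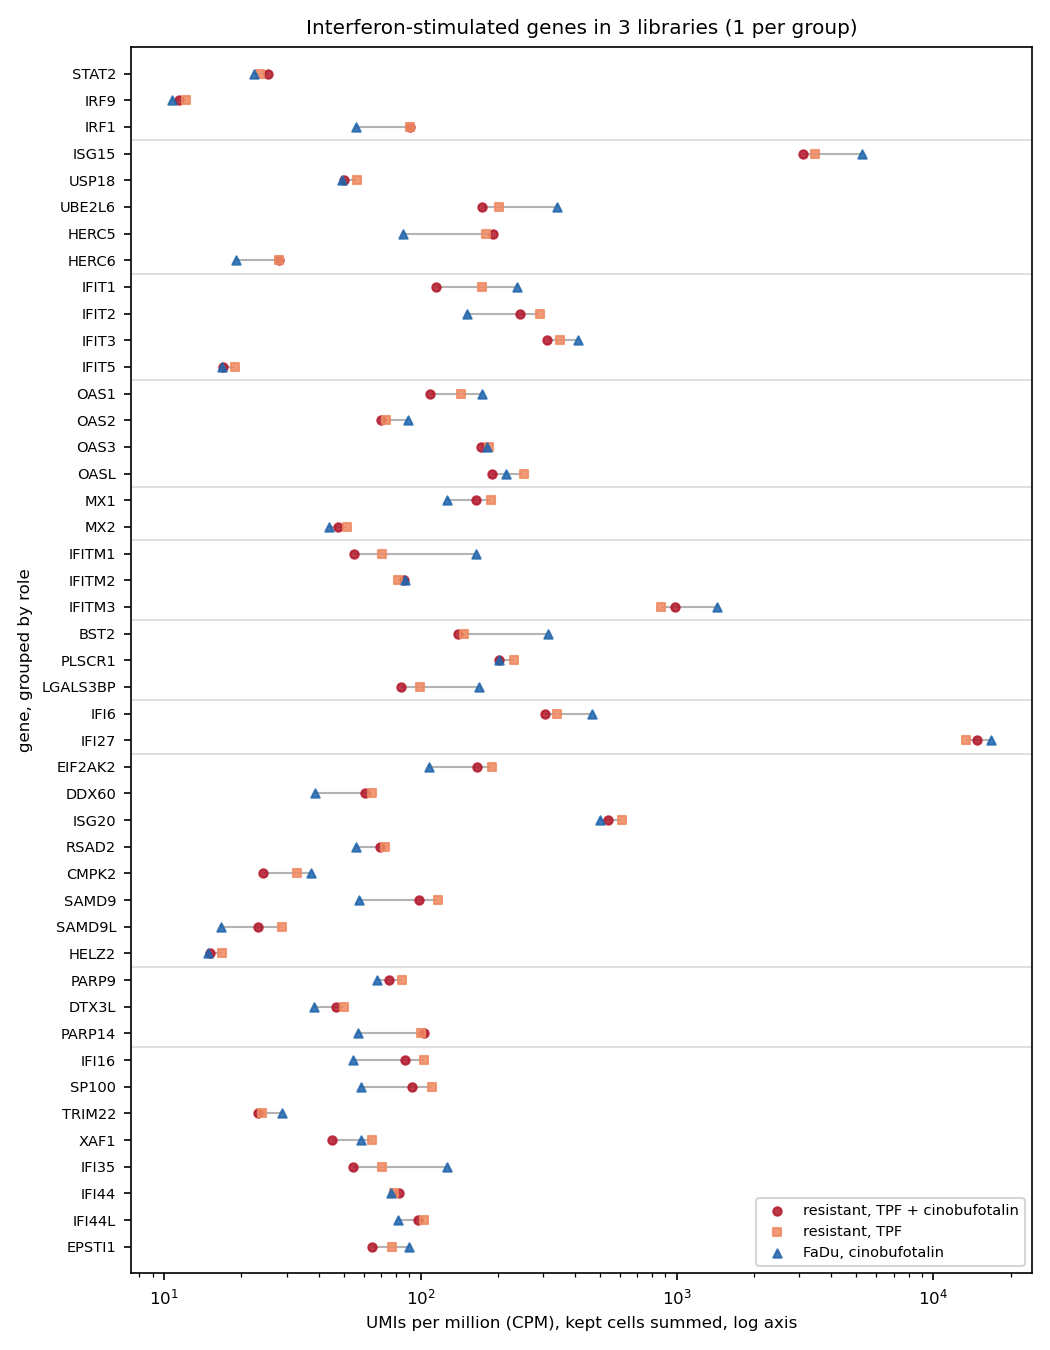
Level of each of the 45 genes in the 3 libraries, in CPM of the summed kept cells on a log axis, with 1 point per library and genes grouped by role from signalling factors at the top to nuclear and other proteins at the bottom. The points of most genes lie close together, IFI27 lies far to the right at 13348 to 16787 CPM, and IFITM1, BST2, IFI35 and HERC5 are among the genes whose FaDu cinobufotalin point stands apart.

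Resistant cells on TPF with cinobufotalin, set over resistant cells on TPF alone, form the pair that differs in 1 labelled factor, cinobufotalin. In it the genes differed little and mostly downward: 37 of 45 had a log2 ratio below 0, as did 63.5% of all genes, and their median was -0.16 against -0.059 over all genes. IFIT1, which binds viral RNA that lacks host cap methylation, was the 1 gene of the 45 at least 1.5-fold lower, where 0.262% of all genes were. It stood at 115 CPM in the resistant TPF cinobufotalin library and 174 CPM in the resistant TPF library, a log2 ratio of -0.59 (-0.62 to -0.57). Under 12 other settings the ratio lay between -0.84 and -0.35. These settings changed the scaling, the depth or weight of cells, the selection of cells, or the CPM limit for genes. The CPM limit leaves a gene's ratio as it was. The IFIT1 ratio was short of 1.5-fold under TMM scaling (-0.55), median-of-ratios scaling (-0.56), with all barcodes (-0.58) and among cells with a MALAT1 share of 1% to 2% (-0.35). Relative to the median gene none of the 45 was 1.5-fold higher or lower, where 0.116% and 0.126% of all genes were.

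Next lowest was XAF1, a pro-apoptotic partner of XIAP, at 45.3 CPM in the resistant TPF cinobufotalin library and 64.6 CPM in the resistant TPF library (-0.51, -0.56 to -0.47). CMPK2, a mitochondrial nucleotide kinase, stood at 24.3 CPM with cinobufotalin and 32.8 CPM without it (-0.44, -0.50 to -0.37). OASL, a member of the oligoadenylate synthetase family without synthetase activity, had 190 CPM with cinobufotalin and 253 CPM without it (-0.41, -0.44 to -0.39). These 3 ratios stayed below 0 under the same 12 settings.

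None of the 45 genes was at least 1.5-fold higher in this pair, where 0.0775% of all genes were. The highest was IFITM3, a membrane protein that hinders virus entry, at 985 CPM in the resistant TPF cinobufotalin library and 868 CPM in the resistant TPF library (0.18, 0.17 to 0.19). IFI27 stood at a log2 ratio of 0.15 (0.15 to 0.15), STAT2, a transcription factor of the pathway, at 0.093 (0.023 to 0.16), and HERC5, the main ligase for ISG15, at 0.090 (0.064 to 0.12). All 4 differences were small beside the 1.5-fold limit of 0.58.

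By role, the genes of this pair lay as follows. The 3 signalling factors summed to 128 CPM in the resistant TPF cinobufotalin library and 127 CPM in the resistant TPF library. The 4 IFIT genes summed to 687 CPM and 837 CPM in the same 2 libraries, and the 4 genes of the OAS family to 540 CPM and 655 CPM. The remaining groups of genes had median log2 ratios from -0.25 to 0.082, beside -0.22 for the IFIT and -0.26 for the OAS genes.

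Set against the FaDu cinobufotalin library, both resistant libraries held a different balance among the 45 genes: genes such as HERC5 and SAMD9 were higher and genes such as IFITM1 and BST2 lower. In the resistant TPF library over the FaDu cinobufotalin library, 10 of 45 were at least 1.5-fold higher, where 36.7% of all genes were, and 7 were at least 1.5-fold lower, where 1.92% of all genes were. With TPF and cinobufotalin over the same library, 9 were higher, where 34.4% of all genes were, and 10 lower, where 4.08% were. Both pairs share the FaDu cinobufotalin library and differ in line and in drug at once. Since the median gene was itself at 0.40 and 0.34 in these pairs, the genes are also given relative to it: 16 of 45 lay at least 1.5-fold under the median gene in the resistant TPF library and 16 in the resistant TPF cinobufotalin library, where 11.6% and 13.8% of all genes were, and 2 and 1 lay that far over it, where 15.1% and 17.4% did. With TMM scaling 0 were higher and 17 lower in the first of these pairs, where 9.33% and 20.4% of all genes were. In the second 1 was higher and 19 lower, where 10.7% and 23.9% were, so the calls upward in the next paragraphs depend on the scaling. The genes called higher stayed above 0 under TMM and median-of-ratios scaling in both pairs, but short of 1.5-fold apart from HERC5 with TPF and cinobufotalin, while 33 of 45 genes lay below the median gene in each pair.

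The ISG15 system showed both directions. ISG15, a ubiquitin-like protein that is joined to other proteins and also secreted, had 3113 CPM in the resistant TPF cinobufotalin library, 3446 CPM in the resistant TPF library and 5277 CPM in the FaDu cinobufotalin library. Its log2 ratio was -0.76 (-0.77 to -0.76) with TPF and cinobufotalin and -0.61 (-0.62 to -0.61) with TPF. UBE2L6, the conjugating enzyme for ISG15, had 174, 202 and 340 CPM in the resistant TPF cinobufotalin, resistant TPF and FaDu cinobufotalin libraries (-0.97, -0.99 to -0.95, and -0.75, -0.77 to -0.73). HERC5, in contrast, had 192, 180 and 85.0 CPM in the same libraries (1.17, 1.145 to 1.204, and 1.08, 1.05 to 1.11). Of the 2 remaining members of this group, USP18, which removes ISG15 and restrains receptor signalling, had 50.3, 56.6 and 49.2 CPM, and HERC6, a ligase related to HERC5, had 27.9, 28.0 and 18.999 CPM, both inside 1.5-fold. HERC5 was the 1 member of the 45 at least 1.5-fold above the median gene in both pairs, and its ratios stayed above 0 under the 12 other settings, at 0.52 to 1.098 for the resistant TPF library and 0.65 to 1.18 for the resistant TPF cinobufotalin library.

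Among membrane and secreted proteins, IFITM1, BST2, LGALS3BP and IFITM3 were lower in the resistant libraries and IFITM2 and PLSCR1 were near level. IFITM1, which acts against virus entry at the cell surface, had 54.9 CPM in the resistant TPF cinobufotalin library, 70.5 CPM in the resistant TPF library and 165 CPM in the FaDu cinobufotalin library, the lowest ratios of the 45 in both pairs at -1.59 (-1.62 to -1.55) and -1.22 (-1.26 to -1.19). BST2, or tetherin, which holds budding virus at the cell surface, had 139, 147 and 313 CPM in the same libraries (-1.17, -1.19 to -1.14, and -1.09, -1.11 to -1.06). These ratios stayed below 0 under the same settings in both pairs, at -2.11 to -0.98 for IFITM1 and -1.69 to -0.80 for BST2. LGALS3BP, a secreted glycoprotein that binds galectins, had 83.6, 99.7 and 168 CPM (-1.01, -1.04 to -0.98, and -0.75, -0.78 to -0.72). IFITM3 had 985, 868 and 1428 CPM, past 1.5-fold downward in the resistant TPF library (-0.72, -0.73 to -0.71) and short of 1.5-fold in the resistant TPF cinobufotalin library (-0.54, -0.55 to -0.53). IFITM2 had 86.3, 81.5 and 86.7 CPM, and PLSCR1, a phospholipid scramblase, had 203, 230 and 202 CPM, so neither was past 1.5-fold. IFITM1 and IFITM2 overlap on the same strand in the annotation, so the authors' counting could split their reads differently, and the IFITM values are uncertain for that reason.

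The IFIT genes, neighbours on chromosome 10, did not move together. IFIT2, which binds RNA and can promote apoptosis, had 244 CPM in the resistant TPF cinobufotalin library, 293 CPM in the resistant TPF library and 152 CPM in the FaDu cinobufotalin library (0.69, 0.66 to 0.71, and 0.95, 0.93 to 0.97). IFIT1 had 115, 174 and 237 CPM in the same libraries (-1.05, -1.07 to -1.02, and -0.45, -0.47 to -0.43). IFIT3, the partner that stabilises IFIT1, had 310, 351 and 410 CPM, and IFIT5, which also binds viral RNA, had 17.0, 18.8 and 16.7 CPM. IFIT2 was the highest of this family in log2 ratio and IFIT1 the lowest in both pairs. Among cells with a MALAT1 share of 0.05% to 0.2%, IFIT2 stood at -0.028 with TPF and cinobufotalin, so it was near level there. This range held few resistant cells: 342 of the resistant TPF cinobufotalin library and 285 of the resistant TPF library, against 1063 of the FaDu cinobufotalin library. IFIT1, IFIT2 and IFIT3 lie opposite LIPA, whose transcripts overlap theirs on the other strand, and the sources used here do not say whether strand was used in counting.

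In the OAS family, whose enzymes make the activator of RNase L, OAS1 had 109 CPM in the resistant TPF cinobufotalin library, 143 CPM in the resistant TPF library and 173 CPM in the FaDu cinobufotalin library. Its ratio was past 1.5-fold with TPF and cinobufotalin (-0.67, -0.70 to -0.65) and not with TPF (-0.27, -0.30 to -0.25). OAS2, OAS3 and OASL were inside 1.5-fold in both pairs. The GTPases MX1 and MX2 were also inside it, MX1 with 164, 188 and 126 CPM and MX2 with 47.8, 51.7 and 44.1 CPM. IFI6, a relative of IFI27, had 304, 341 and 466 CPM (-0.61, -0.63 to -0.60, and -0.45, -0.47 to -0.43), and IFI27 itself was inside 1.5-fold in both pairs.

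Of the 10 genes higher with TPF, 4 were RNA and nucleotide enzymes, as were 3 of the 9 higher with TPF and cinobufotalin. EIF2AK2, the RNA-activated kinase PKR that halts translation, had 165 CPM in the resistant TPF cinobufotalin library, 191 CPM in the resistant TPF library and 107 CPM in the FaDu cinobufotalin library (0.62, 0.59 to 0.65, and 0.83, 0.80 to 0.85). SAMD9 and SAMD9L are neighbouring genes on chromosome 7 whose proteins restrain translation in infected cells. SAMD9 had 98.8, 117 and 57.5 CPM in the same libraries (0.78, 0.74 to 0.82, and 1.02, 0.98 to 1.06). SAMD9L had 23.1, 28.7 and 16.7 CPM (0.47, 0.40 to 0.55, and 0.78, 0.71 to 0.86), past 1.5-fold in the resistant TPF library alone. DDX60, a helicase linked to RNA sensing, had 60.5, 64.4 and 38.9 CPM (0.64, 0.59 to 0.69, and 0.73, 0.68 to 0.77). CMPK2 was the exception, with 24.3, 32.8 and 37.4 CPM and a ratio past 1.5-fold downward with TPF and cinobufotalin (-0.62, -0.69 to -0.56). ISG20, an exonuclease, RSAD2, or viperin, which makes a chain-terminating nucleotide, and HELZ2, a helicase, were inside 1.5-fold in both pairs. CMPK2 and RSAD2 overlap at their starts on opposite strands, as EIF2AK2 and GPATCH11 do.

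Of the remaining genes, PARP14, a mono-ADP-ribosyltransferase, had 103 CPM in the resistant TPF cinobufotalin library, 99.9 CPM in the resistant TPF library and 56.8 CPM in the FaDu cinobufotalin library (0.85, 0.82 to 0.89, and 0.82, 0.78 to 0.85). Its neighbours PARP9 and DTX3L, which form a ubiquitin ligase complex and overlap at their starts, were inside 1.5-fold. IFI16, a nuclear DNA sensor, had 87.0, 103 and 54.3 CPM (0.68, 0.64 to 0.72, and 0.92, 0.88 to 0.96). SP100, a protein of PML nuclear bodies, had 92.8, 110.5 and 58.7 CPM (0.66, 0.62 to 0.70, and 0.91, 0.88 to 0.95). IRF1, a transcription factor that acts on many of the same promoters, had 91.2, 91.1 and 55.7 CPM (0.71, 0.67 to 0.75, and 0.71, 0.67 to 0.75). IFI35, a partner of NMI, went the other way with 54.7, 70.4 and 126 CPM (-1.21, -1.25 to -1.17, and -0.84, -0.88 to -0.81). STAT2, IRF9, TRIM22, XAF1, IFI44, IFI44L and EPSTI1 were inside 1.5-fold in both pairs. Some upward ratios fell below 0 among cells with a MALAT1 share of 0.05% to 0.2%, the range with few resistant cells. Relative to the FaDu cinobufotalin library, with TPF and cinobufotalin PARP14 stood there at -0.21, IFI16 at -0.18, SAMD9 at -0.32 and EIF2AK2 at -0.051. With TPF alone PARP14 stood there at -0.11. With TPF the other 9 higher genes stayed above 0 under the 12 other settings, and HERC5, IRF1, SP100 and DDX60 did so in both pairs, IRF1 at 0.14 to 0.72 and SP100 at 0.083 to 0.94.

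The order of the 45 ratios went with gene length. In the resistant TPF library over the FaDu cinobufotalin library the 10 higher genes had a median genomic span of 49.6 kb and the 7 lower genes 7.87 kb, against 23.2 kb for the 28 between. Across the 45 genes the log2 ratio and the log2 span had a Pearson r of 0.62 in that pair and 0.58 with TPF and cinobufotalin, and across all 10317 genes an r of 0.45 and 0.47. With exonic length in place of span, r was 0.69 and 0.63 across the 45 genes and 0.32 and 0.32 across all genes. Genes are not independent replicates, and these values describe 3 libraries. Between the resistant libraries r with span was 0.0024 over the 45 genes and 0.18 over all genes. Length and the share of MALAT1 moved with these pairs together, and their part in the differences was not tested.

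**Figure D2:**
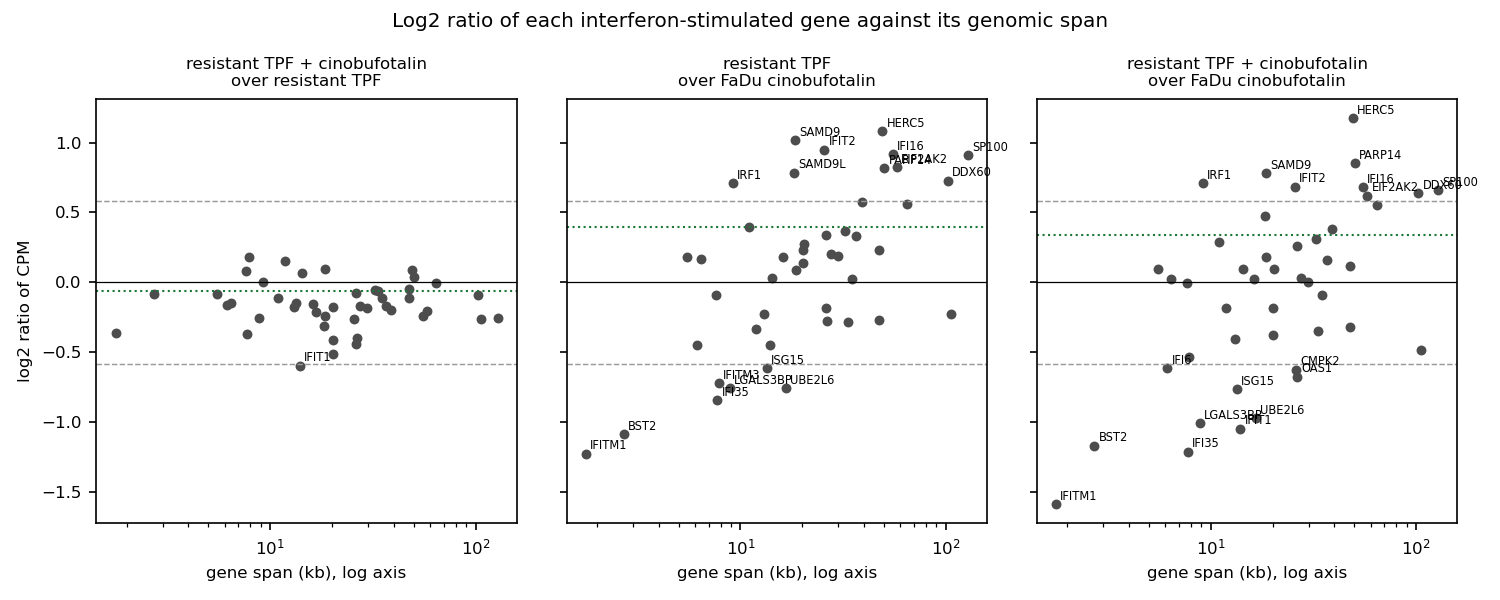
Log2 ratio of CPM of each of the 45 genes (vertical axis) against its genomic span in kb on a log axis, for the 3 pairs of libraries, with dashed lines at 1.5-fold, a dotted green line at the median of all 10317 genes, and names for genes past 1.5-fold. The points rise with span in the 2 right panels, where the Pearson r was 0.62 and 0.58, and lie flat around -0.16 in the left panel.

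The pathway around these genes was also read out. Of 11 ligands, IFNL1, a type III interferon, had 62.4 CPM in the resistant TPF cinobufotalin library, 67.3 CPM in the resistant TPF library and 72.2 CPM in the FaDu cinobufotalin library. IFNL2 and IFNL3 had 4.90 and 7.66, 4.71 and 7.04, and 6.14 and 8.32 CPM in these libraries, and IFNB1, the type I interferon of most cell types, had 0.987, 1.90 and 1.52 CPM. IFNG had 0 UMIs in every library, and IFNA1, IFNA2, IFNL4, IFNK and IFNW1 had at most 4 UMIs in any library, while IFNE had 19 to 31. The 3 ligands at 5 CPM or more were inside 1.5-fold in every pair.

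Of 11 receptor and signalling genes at 5 CPM or more, 6 were at least 1.5-fold higher with TPF and 6 with TPF and cinobufotalin than in the FaDu cinobufotalin library, where 36.7% and 34.4% of all genes were. Among the 45 genes, STAT2 had 25.3 CPM in the resistant TPF cinobufotalin library, 23.7 CPM in the resistant TPF library and 22.3 CPM in the FaDu cinobufotalin library, and IRF9 had 11.4, 12.1 and 10.7 CPM in the same libraries. Of 11 sensors and inducers, 3 were higher with TPF and 2 with TPF and cinobufotalin, where 36.7% and 34.4% of all genes were. The adaptor TICAM1 was lower with TPF and cinobufotalin, at 15.3 CPM in the resistant TPF cinobufotalin library, against 25.7 CPM in the FaDu cinobufotalin library (-0.75, -0.83 to -0.67), where 4.08% of all genes were. DDX58, the RNA sensor RIG-I, led the higher ones with 85.7, 89.9 and 32.1 CPM (1.42, 1.37 to 1.46, and 1.48, 1.44 to 1.53), followed by IFIH1, the RNA sensor MDA5, with 39.1, 50.02 and 23.4 CPM. IRF7, which amplifies interferon production, had 69.6, 96.4 and 86.9 CPM. With cinobufotalin over without it in resistant cells, none of the pathway genes at 5 CPM or more was 1.5-fold higher or lower, where 0.0775% and 0.262% of all genes were.

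Among single cells the 45 genes were uneven. Cells were thinned to 5000 UMIs so that depth did not set how many genes were seen, which left 6954, 4657 and 5979 cells of the resistant TPF cinobufotalin, resistant TPF and FaDu cinobufotalin libraries and dropped 571, 205 and 144 shallower cells. A thinned cell showed a median of 15, 17 and 18 of the 45 genes, with a range of 1 to 39, 2 to 39 and 1 to 40. The summed count had a median of 115, 114 and 146 UMIs, with a 10th percentile of 18, 18 and 20 and a 90th of 220.7, 216 and 237. The share of cells at 3 times their library's median or more was 0.532% (0.375 to 0.733), 0.515% (0.330 to 0.766) and 0.0669% (0.0182 to 0.171). Without IFI27 these shares were 4.11% (3.66 to 4.61), 2.90% (2.44 to 3.42) and 0.820% (0.607 to 1.08). That level was itself highest in the FaDu cinobufotalin library, at 345, 342 and 438 UMIs with all 45 genes and 114, 132 and 174 without IFI27, and the 99th percentile of the sum was 316, 308 and 335 UMIs. Few cells far above the median thus went with a higher median there.

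IFI27 split the cells into a large high range and a smaller low range. Of thinned cells 23.5% (22.5 to 24.5) in the resistant TPF cinobufotalin library, 25.8% (24.5 to 27.05) in the resistant TPF library and 17.2% (16.3 to 18.2) in the FaDu cinobufotalin library held under 20 IFI27 UMIs, a limit chosen after the values were seen. The unthinned shares below the same level were 23.9%, 25.6% and 17.3%, and 190, 130 and 92 cells lay within 10% of the limit. The low range is a range of 1 gene's level, not a cell type. Median IFI27 in it was 6 UMIs in each library, against 88, 81 and 94 UMIs in the remaining cells.

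**Figure D3:**
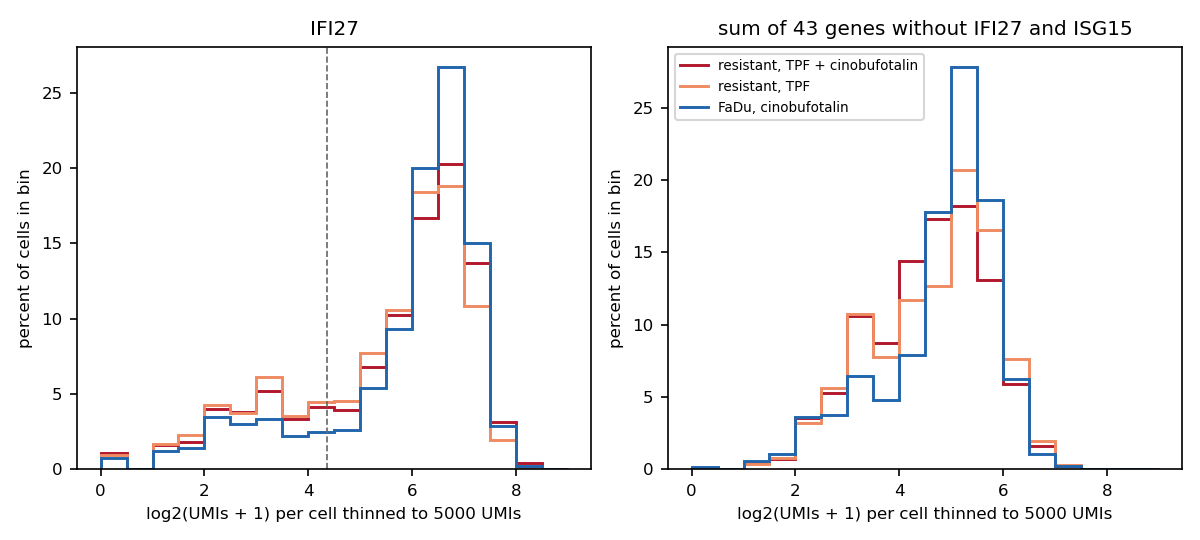
Share of cells (vertical axis, percent) by log2(UMIs + 1) per cell thinned to 5000 UMIs, for IFI27 on the left and for the sum of the 43 genes without IFI27 and ISG15 on the right, with 1 line per library. IFI27 has a main peak at high counts and a lower shoulder left of the dashed line at 20 UMIs, where 23.5%, 25.8% and 17.2% of cells lie, and the sum of the other genes has a like shoulder.

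Most of the other 44 genes were low in the same cells. In cells under 20 IFI27 UMIs, 39 of the 44 other genes were at least 1.5-fold lower than in the remaining cells of their own library in all 3 libraries, where 1.82% of all genes were, and none was higher, where 1.26% were. By library 40, 41 and 44 of the 45 were lower, where 2.24%, 2.61% and 3.32% of all genes were, and none was higher, where 2.99%, 1.77% and 8.57% were. These counts include IFI27, which was lower by the choice of cells. The summed count of the 44 was a median of 12, 13 and 10 UMIs in the low range of the resistant TPF cinobufotalin, resistant TPF and FaDu cinobufotalin libraries, against 46, 55 and 64 UMIs in the remaining cells. XAF1 differed most: it had 3.04, 4.95 and 3.41 CPM in the low range, against 58.1, 84.6 and 68.3 CPM in the remaining cells of these libraries, log2 ratios of -4.25, -4.10 and -4.32. IFI44L, a protein of poorly known function, stood at -4.24, -4.004 and -3.76, and IFI6 at -3.86, -3.74 and -3.95. MX1 and MX2 stood between -3.91 and -3.63, and OAS1 at -3.55, -3.49 and -3.85. IRF9, a DNA-binding factor of the pathway, had 1.33, 1.14 and 0.934 CPM in the low range, against 14.6, 15.9 and 12.4 CPM in the remaining cells (-3.46, -3.80 and -3.73).

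The 5 exceptions were OASL, ISG20, DDX60, HERC5 and IRF1. ISG20 had 502, 543 and 277 CPM in the low range of the resistant TPF cinobufotalin, resistant TPF and FaDu cinobufotalin libraries, against 547, 629 and 541 CPM in the remaining cells (-0.13, -0.21 and -0.96). HERC5 stood at -0.37, -0.28 and -0.90, IRF1 at -0.16, -0.25 and -0.57, OASL at -0.49, -0.41 and -1.31, and DDX60 at -0.55, -0.72 and -0.91. In the FaDu cinobufotalin library all of these but IRF1 were past 1.5-fold downward, so the exceptions lie mostly in the resistant libraries.

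Other pathway genes split likewise. IRF7 stood at -1.74, -1.83 and -2.86 in the low range of the resistant TPF cinobufotalin, resistant TPF and FaDu cinobufotalin libraries, and the chemokine CXCL10 at -3.02, -2.33 and -2.15. The receptor genes IFNAR1 and IFNAR2 and the kinases JAK1 and TYK2 were inside 1.5-fold in every library. Cells with a UMI of IFNL1, IFNL2, IFNL3 or IFNB1 made up 10.9%, 13.2% and 8.44% of the low range in the same libraries, against 12.6%, 10.8% and 17.3% of the remaining cells.

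Cells of the low range had a higher mitochondrial share, at a median of 4.77%, 5.22% and 5.32% against 3.41%, 3.76% and 3.53% in the remaining cells, and a median of 18738, 28370 and 22884 UMIs against 18436.5, 28354 and 25103. The low range also had a higher median MALAT1 share, at 0.932%, 0.956% and 0.1995% against 0.684%, 0.765% and 0.0723% in the remaining cells. Among cells with 2% to 8% mitochondrial UMIs and at least 10000 UMIs, 40 of the 44 genes were at least 1.5-fold lower in the low range in all 3 libraries, where 1.94% of all genes were, and none was higher, where 0.659% were. This selection did not level the mitochondrial share, whose median was 4.496%, 4.79% and 5.12% in the low range against 3.62%, 3.89% and 4.22%. The part of the MALAT1 share and of the remaining mitochondrial difference was not tested. Without this selection, the 6 mitosis genes checked made up a median of 0.128%, 0.121% and 0.0965% of UMIs in the low range and 0.116%, 0.103% and 0.0956% in the remaining cells.

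A second pattern among cells went with the interferon genes themselves, whose UMIs sat in few cells. Cells with 3 or more UMIs of IFNL1, IFNL2, IFNL3 or IFNB1 were 6.72% (6.14 to 7.33) of the resistant TPF cinobufotalin library, 6.38% (5.69 to 7.12) of the resistant TPF library and 8.31% (7.62 to 9.04) of the FaDu cinobufotalin library, or 467, 297 and 497 cells. After thinning to 5000 UMIs the shares were 3.28% (2.87 to 3.72), 3.14% (2.65 to 3.68) and 2.98% (2.56 to 3.44), so the order before thinning was not kept. The highest 1% of cells held 56.4%, 62.6% and 60.01% of these UMIs. Libraries of a single cell line hold no cell type that lacks these genes, so the share set by free RNA is not known.

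In these interferon-expressing cells 6 of the 45 genes were at least 1.5-fold higher than in cells without such a UMI in all 3 libraries, where 0.582% of all genes were: IFIT2, OASL, IFIT3, HERC5, ISG20 and RSAD2. IFIT2 had 800 CPM in interferon-expressing cells of the resistant TPF cinobufotalin library, 1271 CPM in those of the resistant TPF library and 348 CPM in those of the FaDu cinobufotalin library, against 173, 203 and 117 CPM in cells without (log2 ratios 2.21, 2.64 and 1.57). OASL had 531, 966 and 548 CPM, against 142, 183 and 156 CPM in cells without (1.90, 2.40 and 1.81). IFIT3 stood at 1.59, 1.97 and 0.87, HERC5 at 1.46, 1.77 and 0.91, ISG20 at 1.32, 1.69 and 1.12, and RSAD2 at 1.15, 1.402 and 0.755.

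By library, 8, 12 and 6 of the 45 were higher in interferon-expressing cells, where 1.25%, 2.48% and 0.766% of all genes were, and 1 was lower in each, where 12.3%, 2.06% and 9.85% were. ISG15 (0.70, 0.82 and 0.47) and IFIT1 (0.85, 1.105 and 0.45) were past 1.5-fold in both resistant libraries. OAS1 stood at 0.21, 0.024 and 0.20, MX1 at -0.34, -0.47 and -0.24, and IFI27 at 0.27, -0.025 and 0.19. IRF9 was the 1 gene of the 45 at least 1.5-fold lower in all 3 libraries, where 0.737% of all genes were. It had 6.79, 7.69 and 5.58 CPM in interferon-expressing cells of the resistant TPF cinobufotalin, resistant TPF and FaDu cinobufotalin libraries, against 12.1, 12.7 and 11.6 CPM in cells without (-0.84, -0.72 and -1.05). Interferon-expressing cells held 11641631, 9238022 and 20081761 UMIs of all genes in these libraries, so few were of IRF9. Its ratios thus carry a large counting error, and the calls past 1.5-fold are uncertain. The RNA sensors and a chemokine were higher in the same cells: IFIH1 stood at 1.97, 2.25 and 1.14, DDX58 at 1.15, 1.54 and 0.64, and CXCL10 at 1.70, 1.70 and 2.36. Interferon-expressing cells were deeper in the FaDu cinobufotalin library, with a median of 30230 UMIs against 24314 in cells without, and with a lower mitochondrial share of 2.67% against 3.95%. The part of depth in these differences was not tested.

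Of the 6 genes, IFIT2, OASL, IFIT3, HERC5 and ISG20 stayed at least 1.5-fold higher in all 3 libraries when only cells with 20 or more IFI27 UMIs were compared, where 0.436% of all genes were, IRF9 stayed at least 1.5-fold lower, where 1.21% were, and RSAD2 was 1.5-fold higher in both resistant libraries. OASL, ISG20 and HERC5 were thus past 1.5-fold with the interferon genes in every library and short of it in the IFI27-low range of the resistant libraries, while XAF1, MX1, MX2 and IFI44L were past it in the IFI27-low range of every library and short of it with the interferon genes.

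**Figure D4:**
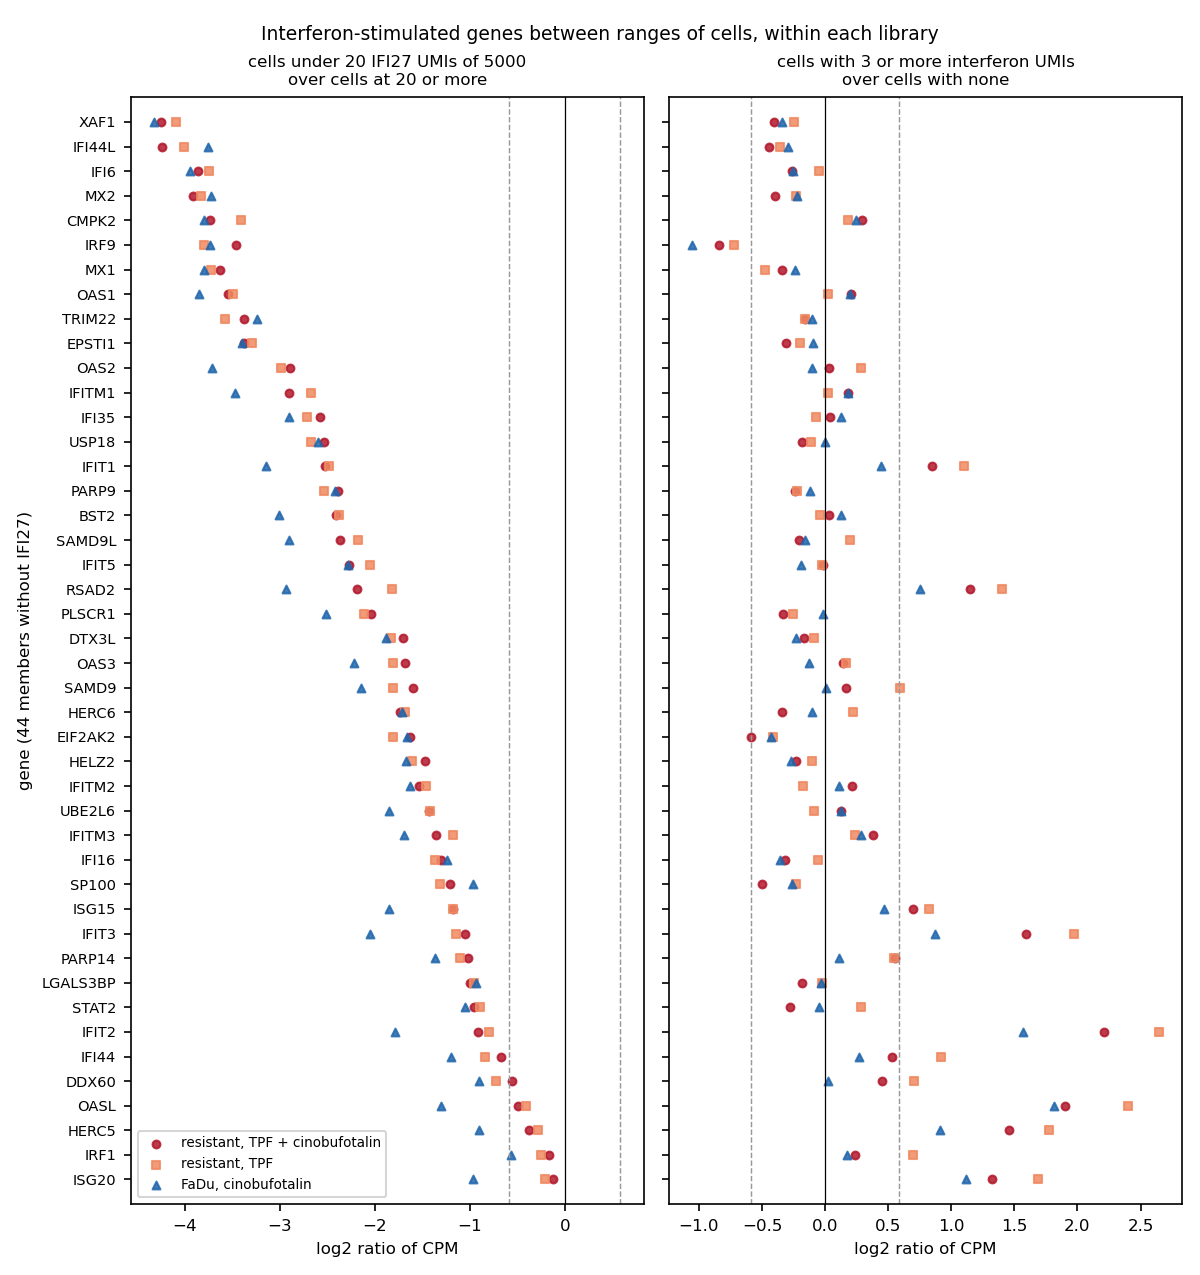
Log2 ratio of CPM of the 44 genes without IFI27 within each library, on the left for cells under 20 IFI27 UMIs over the remaining cells and on the right for cells with 3 or more UMIs of IFNL1, IFNL2, IFNL3 or IFNB1 over cells with none, with 1 point per library and dashed lines at 1.5-fold. XAF1, IFI44L and IFI6 lie near -4 on the left and near 0 or below on the right, whereas IFIT2, OASL, HERC5 and ISG20 lie in the lower rows, nearer to 0, on the left and farthest to the right on the right.

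Promoter sequences are shown for 5 genes on which these patterns turn: IFI27, whose level set the low range, IFIT3, HERC5 and ISG20, which were higher in interferon-expressing cells, and IRF9, which was lower in them. Each is a RefSeq window (GRCh38.p14) of 300 bases, from 250 before an annotated start, 5′ to 3′ on the gene's strand, and all 5 lie on the plus strand. IFI27 and IFIT3 also have a window at another annotated start, which is not printed. Capitals mark matches on either strand to the interferon-stimulated response element (GAAA, any 2 bases, GAAA) or to the gamma-activated site (TTC, any 3 bases, GAA).
IFI27, chr14:94110486-94110785: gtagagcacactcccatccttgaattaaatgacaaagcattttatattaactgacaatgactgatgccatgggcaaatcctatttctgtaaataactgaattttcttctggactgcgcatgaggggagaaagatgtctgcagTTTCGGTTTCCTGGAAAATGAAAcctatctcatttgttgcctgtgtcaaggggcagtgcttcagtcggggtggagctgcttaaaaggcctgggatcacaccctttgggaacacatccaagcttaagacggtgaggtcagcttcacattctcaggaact
IFIT3, chr10:89327747-89328046: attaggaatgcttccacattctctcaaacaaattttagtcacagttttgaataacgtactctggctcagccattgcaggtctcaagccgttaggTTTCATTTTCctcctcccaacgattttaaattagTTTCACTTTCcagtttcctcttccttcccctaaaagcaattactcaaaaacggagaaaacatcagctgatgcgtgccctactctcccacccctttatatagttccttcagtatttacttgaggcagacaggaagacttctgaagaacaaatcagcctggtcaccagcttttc
HERC5, chr4:88456869-88457168: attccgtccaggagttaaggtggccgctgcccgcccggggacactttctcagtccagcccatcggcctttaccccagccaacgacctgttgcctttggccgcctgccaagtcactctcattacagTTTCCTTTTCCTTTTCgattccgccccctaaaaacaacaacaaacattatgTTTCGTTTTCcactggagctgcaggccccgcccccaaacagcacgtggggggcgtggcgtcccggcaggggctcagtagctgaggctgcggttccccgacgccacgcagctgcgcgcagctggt
ISG20, chr15:88638766-88639065: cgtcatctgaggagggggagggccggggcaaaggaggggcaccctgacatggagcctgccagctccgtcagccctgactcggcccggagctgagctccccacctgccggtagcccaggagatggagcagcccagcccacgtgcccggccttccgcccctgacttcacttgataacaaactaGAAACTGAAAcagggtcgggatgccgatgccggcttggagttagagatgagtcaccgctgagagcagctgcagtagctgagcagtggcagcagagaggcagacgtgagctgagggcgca
IRF9, chr14:24161015-24161314: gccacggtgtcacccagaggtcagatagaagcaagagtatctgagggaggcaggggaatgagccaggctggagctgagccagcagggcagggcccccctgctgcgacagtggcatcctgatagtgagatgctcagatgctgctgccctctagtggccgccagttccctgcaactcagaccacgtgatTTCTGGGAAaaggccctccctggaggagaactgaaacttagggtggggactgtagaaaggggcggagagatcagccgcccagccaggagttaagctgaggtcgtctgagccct
The printed IFI27 window held 2 response elements, the first 108 bases before the start, and a gamma-activated site between and overlapping them. Counted from the other annotated start of IFI27, the first lay 187 bases before it. The printed IFIT3 window held 2 response elements, and its other window held 2 different ones. The HERC5 window held 3, of which 2 overlap each other, while the ISG20 window held 1, starting 69 bases before the start. The IRF9 window held no response element and 1 gamma-activated site, 63 bases before the start. A match is a description of letters and not a bound site.

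Of the 45 genes, 38 matched a RefSeq promoter window by symbol, with 53 windows in all. USP18, IFIT2, OAS2, OASL, MX2, IFITM2 and TRIM22 are named only. A response element was found in at least 1 window of 25 of the 38 genes (65.8%), against 4.38% of 27305 genes, and in 30 of 53 windows (56.6%), against 3.57% of 35116 windows. A gamma-activated site was found for 12 of the 38 genes (31.6%), against 9.38% of 27305 genes, and 8 pairs of the 2 motifs overlapped in the members' windows. The form searched has 2 bases between the GAAA repeats, and repeats with 1 base between them were not counted. Among genes without a match to that form, XAF1, OAS1, IRF9 and CMPK2 were among the lowest in the IFI27-low range. IRF1, also without a match, was among its exceptions. Windows of XAF1 and OAS1 hold GAAACGAAA, and a window of CMPK2 holds its reverse complement TTTCGTTTC. The IRF9 window holds neither. The lack of a match in XAF1, OAS1 and CMPK2 is thus a matter of the form searched.

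The 45 genes also lie in runs of neighbours. In hg38, the build of the files, with GENCODE release 29 positions, IFIT2, IFIT3, IFIT1 and IFIT5 span chr10:89283694-89421001, and IFITM2, IFITM1 and IFITM3 span chr11:307631-327537. OAS1, OAS3 and OAS2 span chr12:112906777-113011723, and PARP9, DTX3L and PARP14 span chr3:122527924-122730840. Pairs of neighbours were IFI44L and IFI44, CMPK2 and RSAD2, MX2 and MX1, HERC6 and HERC5, and SAMD9 and SAMD9L. Neighbours could differ: HERC5 was at 1.08 and HERC6 at 0.56 in the resistant TPF library over the FaDu cinobufotalin library, and IFIT2 was at 0.95 beside IFIT1 at -0.45.

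Between cells of a library, the genes varied more than most genes of the 10317. The squared coefficient of variation in excess of counting noise had a median percentile of 86.9, 84.5 and 76.4 over the 45 genes in the resistant TPF cinobufotalin, resistant TPF and FaDu cinobufotalin libraries. IFIT2 ranked highest, at percentiles 97.9 to 98.95 across the libraries, followed, by lowest percentile over the libraries, by RSAD2, OASL, IRF9 and ISG20, each at 90.9 or above. IFIT2 had a UMI in 35.6%, 37.9% and 33.3% of thinned cells, and IRF9 in 5.92%, 6.48% and 5.84%. By the same measure UBE2L6, DTX3L and HELZ2 ranked last, but HELZ2 ranged from 11.8 to 77.2 and DTX3L from 43.1 to 76.2, whereas IFITM3 lay at 50.4 to 54.4.

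Over the 990 pairs of members, Pearson r of log counts between cells had a median of 0.168, 0.170 and 0.128 in the same libraries, and 1 pair in the resistant TPF library was below 0. Cells of a library share its preparation and free RNA, and counts of 5000 UMIs per cell are sparse, so low values of r are not read further. The highest pairs were IFIT2 and IFIT3 (0.66, 0.70 and 0.54), ISG15 and IFI27 (0.53, 0.57 and 0.72), IFI6 and IFI27 (0.58, 0.64 and 0.62) and IFITM3 and IFI27 (0.55, 0.49 and 0.62). IFIT2 with OASL reached 0.51, 0.53 and 0.45, and HERC5 with OASL 0.46, 0.50 and 0.31. ISG15 paired about as closely with IFIT3 (0.49, 0.52 and 0.48) and ISG20 (0.47, 0.52 and 0.51), so it went with genes of both patterns of cells above.

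**Figure D5:**
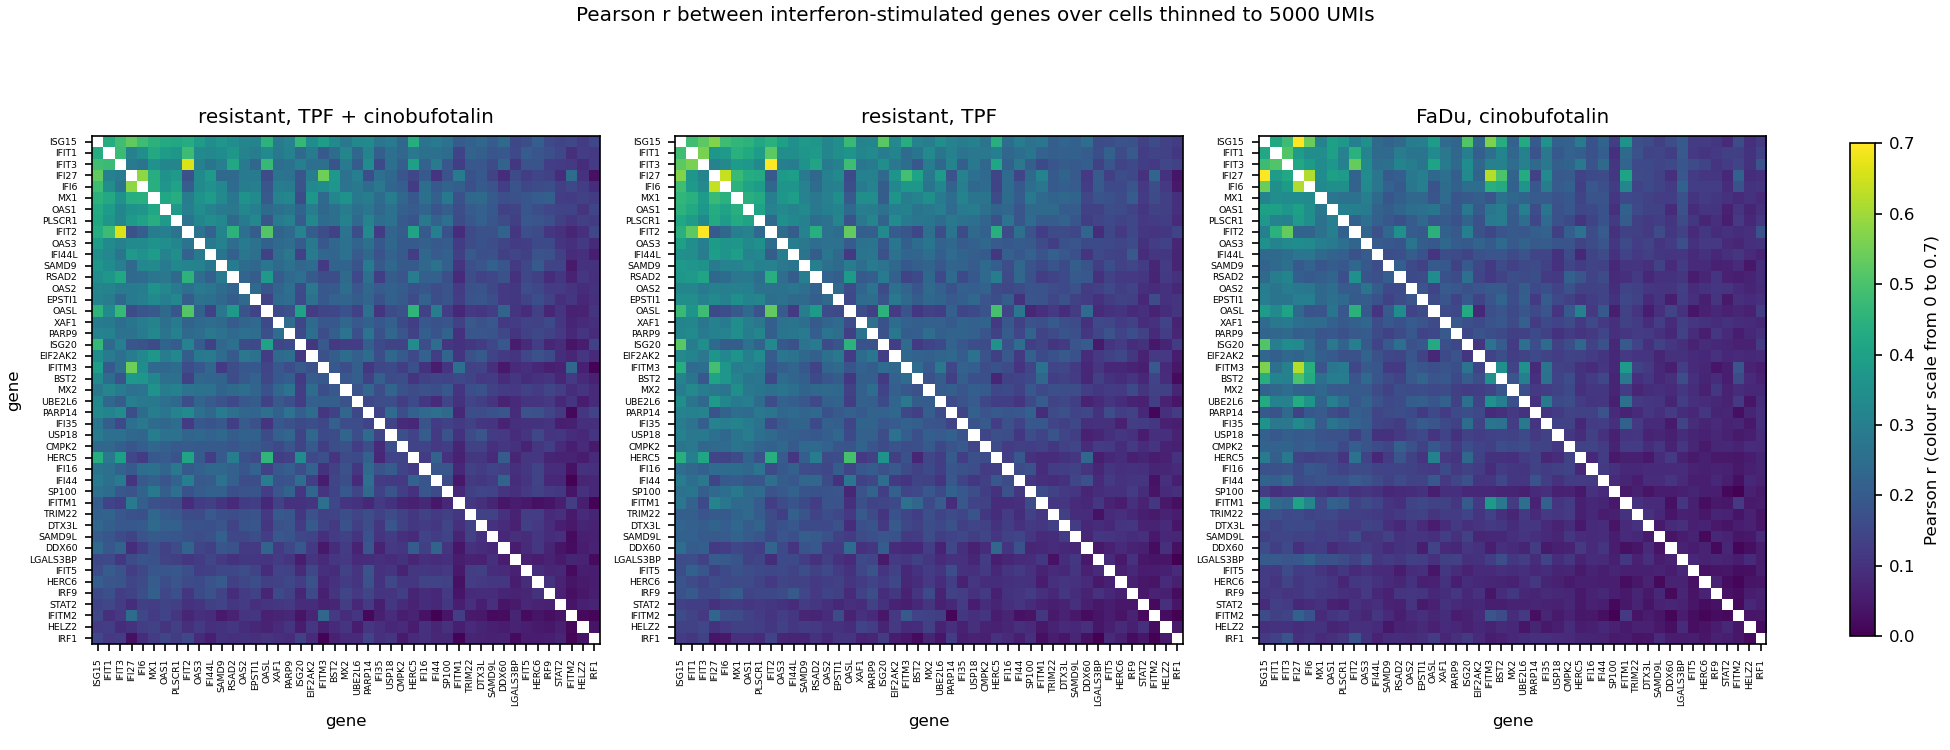
Pearson r between each pair of the 45 genes over cells thinned to 5000 UMIs, 1 panel per library, with genes in the same order on both axes (sorted by mean r) and colour from 0 to 0.7. ISG15, IFIT1, IFIT3, IFI27 and IFI6 fill the bright upper left corner, IFIT2 with IFIT3 and IFITM3 with IFI27 are bright spots away from it, and IRF1, HELZ2 and STAT2 are dark throughout.

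Outside the 45, PSME2, LY6E and PSMB9 had thinned counts that followed the sum of all 45 genes most closely in all 3 libraries. PSME2, a proteasome activator, had an r of 0.45, 0.48 and 0.54 in the resistant TPF cinobufotalin, resistant TPF and FaDu cinobufotalin libraries. LY6E, a membrane protein that limits virus entry, stood at 0.43, 0.51 and 0.60, and PSMB9, an immunoproteasome subunit, at 0.41, 0.42 and 0.47. Next were B2M, HLA-B and HLA-C of antigen presentation, the growth factor MDK, the nuclear body protein SP110, IRF7, the death ligand TNFSF10 and IGFBP6. IRF7 belongs to the pathway lists, and the lowest r of these genes in any library was 0.24. The sum of all 45 mostly describes IFI27, and the order changed with the sum of the 43 genes without IFI27 and ISG15. With that sum PSMB9 came first (0.42, 0.41 and 0.46), then LY6E (0.38, 0.44 and 0.56) and PSME2 (0.37, 0.40 and 0.50), and GBP1 and WARS stood above IGFBP6. The sum of the 43 genes had an r of -0.16, -0.16 and -0.18 with the mitochondrial share. Its r was -0.088, -0.12 and -0.054 with 6 mitosis genes and 0.021, 0.024 and -0.042 with the MALAT1 share of a cell.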

How the data were processed

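The deposited matrices hold the authors' raw UMI counts per gene and cell barcode, from 10x Genomics 3' libraries processed by Cell Ranger 7.0 against hg38, per the submitters' processing notes. The sources used here do not say how introns, strand or overlapping genes were counted. Kept barcodes had 1000 or more UMIs, 500 or more genes and a mitochondrial share of 20% or less, and doublets and free RNA were not corrected. Counts were summed per library and given as CPM. With 1 library per group no test was run, and replicates, cultures and batches cannot be told apart from the groups. A gene is called higher or lower at 1.5-fold, among genes with a mean of at least 5 CPM. For values per cell, each cell was thinned to 5000 UMIs with a fixed seed. Positions come from GENCODE release 29 on GRCh38 and promoters from RefSeq, GRCh38.p14.

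All 45 genes are named by role. In each pair, those past 1.5-fold, or otherwise the 4 highest and 4 lowest, have ratios with intervals, and the 12 genes outside the 45 with the highest of the smallest r over the 3 libraries are given as most alike, except 1 that is not reported here. The 45 genes and the pathway lists were chosen with earlier results of these data known. The settings tried changed the scaling (TMM from edgeR 4.0.16, and median of ratios), the filters on cells and genes, the thinning and the range of MALAT1 shares, and those on IFI27, interferon UMIs and the median gene were chosen after seeing the data. The fold calls, their intervals and the thinning were tested on simulated counts, which for the calls and intervals varied by counting error alone. The ranges of cells, the spread between cells, the correlations and the motif search were not tested in this way. Python 3.11.15, numpy 2.4.6, scipy 1.17.1, pandas 2.3.3 and R 4.3.3 were used.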

Additional observations from a re-analysis of the deposited data

How the results depend on the processing

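No paired analysis was possible because each group had 1 library. Without replicates, intervals cover counting error only, genes under 5 CPM could not be compared, and a share of 0 is limited by the number of cells. The first pair is TPF with cinobufotalin over TPF alone in resistant cells, the second is resistant TPF over FaDu cinobufotalin, and the third is resistant TPF cinobufotalin over FaDu cinobufotalin. With TMM scaling, 0 of the 45 genes were 1.5-fold lower in the first pair, where 0.136% of all genes were, and their median log2 ratio was -0.12. TMM gave 0 higher, 17 lower and a median of -0.39 in the second, and 1 higher, 19 lower and a median of -0.49 in the third. Of all genes, 9.33% were higher and 20.4% lower in the second, and 10.7% higher and 23.9% lower in the third. Median-of-ratios scaling gave, for these 3 pairs in turn, 0 lower and -0.13, then 0 higher, 17 lower and -0.37, then 1 higher, 19 lower and -0.49. With it 0.156% of all genes were lower in the first pair, 9.94% higher and 19.2% lower in the second, and 10.85% higher and 23.6% lower in the third. All barcodes gave 0 lower in the first pair, where 0.213% of all genes were. Leaving mitochondrial and ribosomal protein genes out of the totals gave a median of -0.040 in the third. Among cells with a MALAT1 share of 0.05% to 0.2%, the first pair had 4 lower and a median of -0.33. The second had 1 higher, 15 lower and -0.34, and the third 1 higher, 22 lower and -0.45. Of all genes in these cells, 3.65% were lower in the first pair. In the second 19.9% were higher and 5.03% lower, and in the third 15.8% were higher and 9.0101% lower. There PARP14 stood at -0.11 in the second pair, and in the third IFIT2 at -0.028, EIF2AK2 at -0.051, SAMD9 at -0.32, PARP14 at -0.21 and IFI16 at -0.18. At 0.3% to 1% the second pair had 2 higher and a median of -0.045, and the third 1 higher and -0.16, where 21.6% and 23.2% of all genes were higher. At 1% to 2% the first pair had 0 lower and a median of -0.10, the second 3 higher and -0.053, and the third 2 higher and -0.079. Of all genes, 0.431% were lower in the first pair, 21.3% higher in the second and 22.8% higher in the third. Among cells with at least 20 IFI27 UMIs, chosen after seeing the data, the medians were -0.20 in the first pair and 0.29 in the second. The causes were not tested. The share of cells at 3 times the median sum was 4.11%, 2.90% and 0.820% without IFI27, and 4.01%, 3.24% and 0.853% without IFI27 and ISG15, in the resistant TPF cinobufotalin, resistant TPF and FaDu cinobufotalin libraries. The share under an IFI27 limit was 16.4%, 17.6% and 12.6% at 10 UMIs and 28.2%, 31.1% and 20.1% at 30 UMIs in the same libraries. The other 97 counts, medians and shares recomputed stayed within 1.5 times or within counting error.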
